A study of Drosophila melanogaster with 4 samples.

Results

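The cytosolic ribosomal protein genes of Drosophila melanogaster were examined in an anti-GFP CUT&RUN series from wing imaginal discs, the larval tissue that forms the adult wing. They were taken from a gene table on build dm6 as the protein-coding genes whose symbol begins with RpL or RpS and a digit, together with stubarista (sta), a small-subunit protein gene. This gave 89 of 13922 protein-coding genes on the 6 main chromosome arms, 50 of them for the large subunit and 39 for the small subunit. The rule leaves out the stalk protein genes RpLP0, RpLP1 and RpLP2. It takes in 4 genes with "-like" names: RpL22-like, RpL24-like, RpL7-like and RpS28-like. In CUT&RUN an antibody holds a nuclease at its target, and the DNA fragments set free are sequenced. Osa-GFP comprised 2 libraries from discs in which Osa, a subunit that defines one class of the SWI/SNF (Brahma) nucleosome remodeler, carries GFP. The control, yw, comprised 2 libraries from larvae with no GFP, taken through the same antibody. All larvae were females at the wandering larval stage, reared at 25 °C, with 20 to 22 discs per library. The labels name no other allele, and they do not say how the GFP tag was introduced or whether the replicates came from separate crosses, so spread between replicates may be partly technical.

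Ribosomal proteins assemble with ribosomal RNA into the small subunit, which decodes messenger RNA, and the large subunit, which joins amino acids. Their genes are short, lie scattered over all chromosome arms and are among the most strongly transcribed genes of growing cells. In the wing disc they are known through the Minute mutations: loss of 1 copy of many of these genes slows growth, and such cells are outcompeted by their neighbours. Many of their introns hold small nucleolar RNAs (snoRNAs), which guide the modification of ribosomal RNA. SWI/SNF remodelers slide or evict nucleosomes and, in fly tissues, are best known at enhancers and promoters of developmental genes.

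Each library was represented by a list of intervals called by the authors' peak caller. Counting the main arms alone, Osa-GFP replicates 1 and 2 had 5820 and 4987 intervals, against 774 and 4535 for yw replicates 1 and 2. The caller's background (fragments per position, recovered from the steps between its folds) came to 0.472 and 0.460 for Osa-GFP, against 0.120 and 0.481 for yw. yw replicate 1 was therefore the shallow library, and its list starts at 3 fragments over the summit, or 24.9 times its background. The other 3 lists start at 4 fragments, or 8.32 to 8.69 times their backgrounds. A gene was counted in a list when an interval overlapped its span or the 500 bp on either side by at least 1 bp. As a check of the tissue, all 5 wing disc genes examined (vg, nub, ap, sd and wg) had an interval in both Osa-GFP lists, against 9.14% of all protein-coding genes; none had one in yw replicate 1 and 3 had one in yw replicate 2, so that 2 were in both Osa-GFP lists and no yw list. Of 3 markers of adult muscle precursors, 2 (twi and zfh1) were in both Osa-GFP lists, and yw replicates 1 and 2 held 1 and 2 of the 3. Of 2 tracheal markers, each of the 4 lists held 1. Of 2 hemocyte markers, no Osa-GFP list held any, while yw replicate 1 held 0 and yw replicate 2 held 1. The fat body genes Lsp2 and Fbp1 had no interval in any list. Whether cells of those types contribute to the ribosomal protein gene intervals was not tested.

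Few ribosomal protein genes had an interval in the Osa-GFP lists, and more of them had one in the deeper control list. An interval was found at 5 and 3 of the 89 genes in Osa-GFP replicates 1 and 2, against 4 and 26 genes in yw replicates 1 and 2. As shares these were 5.62% (95% Wilson interval 2.42% to 12.5%) and 3.37% (1.15% to 9.45%) in the Osa-GFP libraries. They were 4.49% (1.76% to 11.0%) and 29.2% (20.8% to 39.4%) in the yw libraries. The intervals cover counting error only. Over all protein-coding genes the share was 13.3% and 12.0% for Osa-GFP, against 3.92% and 19.2% for yw, in order of replicate. Ribosomal protein genes thus lay below all genes in both Osa-GFP lists, close to them in yw replicate 1 and above them in yw replicate 2. The 2 genotypes overlapped in the share of ribosomal protein genes itself, because the shallow yw replicate 1 lay between the Osa-GFP libraries. The mean share was 4.49% ± 1.59 in Osa-GFP and 16.9% ± 17.5 in yw (SD, n = 2 each), a difference of -12.4 percentage points with a two-sided exact permutation p of 0.67. With 2 libraries against 2, the smallest p this test can give is 0.33, so it cannot pass a threshold of 0.05. Without yw replicate 2 the difference was 0, and without yw replicate 1 it was -24.7 points.

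**Figure D1:**
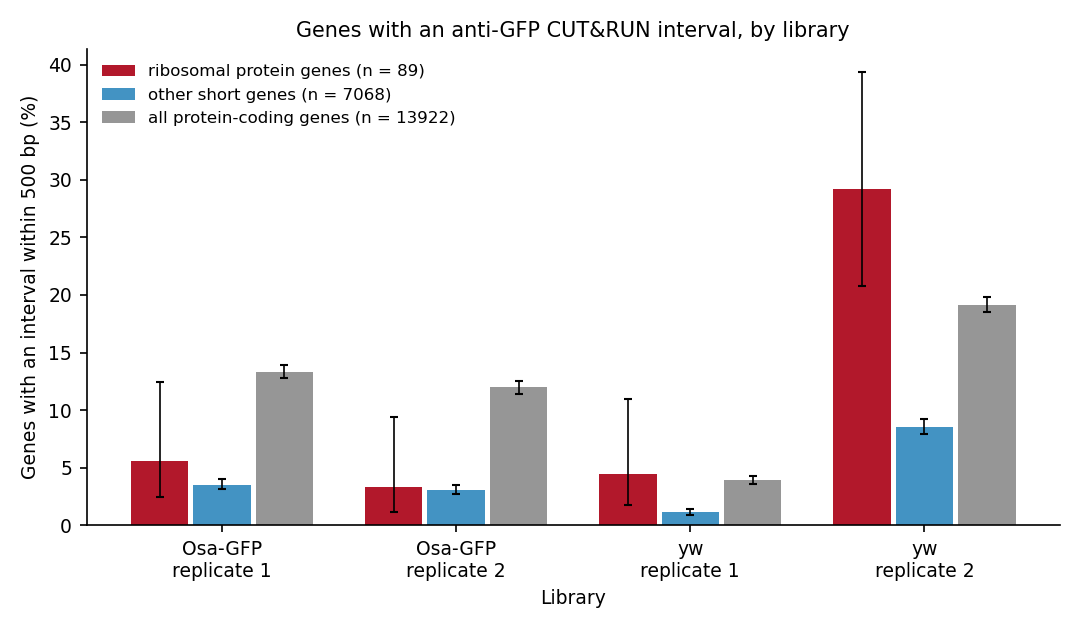
Percentage of genes with an interval within 500 bp (vertical axis) in each library (horizontal axis), for ribosomal protein genes, other short genes and all protein-coding genes. Bars are shares and error bars 95% Wilson intervals. In yw replicate 2, 29.2% of ribosomal protein genes had an interval against 8.52% of other short genes, while in the Osa-GFP libraries these 2 sets lay within 2.08 points of each other.

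Because short genes offer little space for an interval, the ribosomal protein genes were compared with 7068 other protein-coding genes whose spans lay between 589 and 2572 bp, the 5th to the 95th percentile of the ribosomal protein genes. In the Osa-GFP lists, 5.62% and 3.37% of ribosomal protein genes stood against 3.54% and 3.07% of other short genes, ratios of 1.59 and 1.1. In the yw lists, 4.49% and 29.2% of ribosomal protein genes stood against 1.13% and 8.52% of other short genes, ratios of 3.97 and 3.43. The excess over other short genes was 2.08 and 0.30 percentage points in the Osa-GFP libraries and 3.36 and 20.7 points in the yw libraries, so here the genotypes did not overlap. The 2 nearest values, from yw replicate 1 and Osa-GFP replicate 1, rest on 4 and 5 ribosomal protein genes. The Wilson intervals of these 2 shares, 1.76% to 11.0% and 2.42% to 12.5%, overlap widely, so that gap is within counting error. The mean excess was 1.19 ± 1.26 points in Osa-GFP and 12.0 ± 12.3 points in yw (SD, n = 2 each), a difference of -10.8 points. The two-sided exact permutation p was 0.33, the smallest possible. Without yw replicate 2 it was -2.17 points, and without yw replicate 1 it was -19.5 points.

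The bases covered by intervals were compared in the same way. Intervals covered 0.541% and 0.420% of the windows around ribosomal protein genes in Osa-GFP replicates 1 and 2, against 0.358% and 2.67% in yw replicates 1 and 2. Set against the windows of all protein-coding genes, coverage at ribosomal protein genes was 0.332 and 0.315 times as high in the Osa-GFP libraries and 2.86 and 2.68 times as high in the yw libraries. Set against other short genes it was 1.29 and 1.21 times as high in Osa-GFP and 4.03 and 3.35 times as high in yw. Both ratios lay close together within a genotype, but those of yw replicate 1 rest on 4 intervals of 3 to 5 summit fragments. Those of Osa-GFP replicates 1 and 2 rest on 5 and 4 intervals, of 4 to 8 and 5 to 7 summit fragments. Whether depth affects the ratios was not tested. Of all intervals in a list, 0.0859% and 0.0802% met a ribosomal protein gene window in Osa-GFP (5 and 4 intervals), against 0.517% and 0.573% in yw (4 and 26 intervals). The genotypes did not overlap in this share, with a mean of 0.0831% ± 0.0040 in Osa-GFP and 0.545% ± 0.0400 in yw (SD, n = 2 each) and a difference of -0.462 points. Counting error was wider than these SDs. The 95% Wilson intervals were 0.0367% to 0.201% and 0.0312% to 0.206% for Osa-GFP. For yw they were 0.201% to 1.32% and 0.392% to 0.839%, and that of yw replicate 1 met that of Osa-GFP replicate 2. The exact permutation p was again 0.33, the smallest possible. Intervals that met other short genes made up 4.30% and 4.19% of the Osa-GFP lists, against 9.17% and 11.9% of the yw lists. The genotypes did not overlap there either, so the lack of overlap was not particular to ribosomal protein genes. For all protein-coding genes the shares were 72.3% and 70.3%, against 71.3% and 77.0%. A share of a list also falls when intervals are added elsewhere, and 282 of all genes had an interval in both Osa-GFP lists and no yw list. The share was calculated after the counts per library had been seen.

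Across the 4 lists, 60 of the 89 ribosomal protein genes (67.4%) had no interval at all, against a background of 73.9% of all genes and 87.7% of other short genes; 29 had one in at least 1 list, against 26.1% of all genes and 12.3% of other short genes. An Osa-GFP list held 7 ribosomal protein genes (7.87%), against 16.2% of all genes and 5.01% of other short genes. A yw list held 26 (29.2%), against 20.2% of all genes and 9.13% of other short genes. Both Osa-GFP lists held 1 gene (1.12%), against 9.14% of all genes and 1.60% of other short genes, and no yw list held it; that pattern was found at 2.03% of all genes and 0.693% of other short genes. In the other direction, 22 ribosomal protein genes (24.7%) had an interval in a yw list and in no Osa-GFP list, against 9.91% of all genes and 7.26% of other short genes.

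Of those 22 genes, 18 had an interval in yw replicate 2 alone, a pattern found at 8.56% of all genes and 6.41% of other short genes. The remaining 4 were the ribosomal protein genes in both yw lists (4.49%), against a background of 2.87% of all genes and 0.523% of other short genes in both yw lists. Being in both yw lists and no Osa-GFP list was found at 0.517% of all genes and 0.283% of other short genes. Without yw replicate 2, the 22 became these 4. A list of each genotype held 4 ribosomal protein genes, against 10.3% of all genes and 1.87% of other short genes. Only 1 Osa-GFP list and no other held 2, against 3.83% of all genes and 2.45% of other short genes. With RpLP0, RpLP1 and RpLP2 added, Osa-GFP replicates 1 and 2 had 6 and 4 of 92 genes, against 5 and 28 in yw replicates 1 and 2.

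The gene with intervals in both Osa-GFP lists was RpL22-like, on 2R at 23246610 to 23247893, a copy of RpL22 known for its expression in the male germline. In Osa-GFP replicate 1 it had an interval at 23246078 to 23246618 with a caller's fold of 6.12, or 8 fragments over the summit, which crosses the gene's end by 9 bp. In Osa-GFP replicate 2 it had an interval at 23246293 to 23246544 beside the same end, with a fold of 4.11 and 5 fragments, and a separate interval inside the gene at 23246903 to 23247314, with a fold of 5.48 and 7 fragments. Neither yw list had an interval there. RpL22-like is the nearest protein-coding gene to each of these intervals, and no other protein-coding gene lies within 500 bp of them. They were of middling to low strength in their lists, ranking 2860 of 5820 in replicate 1 and 2700 and 3908 of 4987 in replicate 2. None of the other 88 genes had intervals in both Osa-GFP lists.

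The other Osa-GFP intervals were weak and each was found in 1 Osa-GFP library. In Osa-GFP replicate 1 they lay at RpS4 with 6 summit fragments, at RpL22 and RpS20 with 5 each, and at RpL21 with 4, the lowest number in that list. In Osa-GFP replicate 2 they lay at RpL28 with 7 summit fragments and at RpL24-like, a relative of a yeast ribosome assembly factor, with 5. None of the 9 Osa-GFP intervals at ribosomal protein genes lay above the median −log10 p of its list, and none reached a −log10 q of 10. At 4 of these genes yw replicate 2 had an interval too. RpL28 had 7 fragments in Osa-GFP replicate 2 and 17 in yw replicate 2. RpL22 had 5 in Osa-GFP replicate 1 and 10 in yw replicate 2. RpS20 had 5 in Osa-GFP replicate 1 and 6 in yw replicate 2, and RpS4 had 6 in Osa-GFP replicate 1 and 5 in yw replicate 2. Fragment numbers of different libraries are given side by side and were not tested.

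In the yw lists the tallest summit was at RpS9, a small-subunit protein, on 3L at 9509793 to 9511531. Neither Osa-GFP library had an interval there. yw replicate 1 had one at 9509318 to 9509568 with 5 fragments, and yw replicate 2 one at 9509174 to 9509898 with 26 fragments and a caller's fold of 18.2. Relative to background these summits stood at 41.6 and 54.1 times in yw replicates 1 and 2. At RpL7A, a large-subunit protein, on X at 6530897 to 6533348, the summits held 3 fragments at 6533547 to 6533901 in yw replicate 1 and 18 at 6533366 to 6534217 in yw replicate 2, or 24.9 and 37.4 times background. At RpL37-1, a large-subunit protein on X at 15137870 to 15139367, they held 3 fragments at 15139512 to 15139709 in yw replicate 1 and 9 at 15139500 to 15139784 in yw replicate 2, or 24.9 and 18.7 times background. At these 3 genes the intervals of the yw libraries overlapped each other, and both Osa-GFP lists, which go down to 4 fragments, had none.

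A further 18 genes had an interval in yw replicate 2 alone. Among the tallest was RpL11, which joins the 5S RNA particle of the large subunit, on 2R with 12 fragments at 19442239 to 19442469. RpS26, a small-subunit protein, had 11 fragments. RpL14, a Minute gene much used in studies of cell competition, and RpL26 had 9 each, and RpL29 and RpS28a had 8. Another 11 had 4 to 7 fragments, among them RpL3, a protein close to the site of peptide bond formation, with 7, and RpL32, the "rp49" of many expression assays, with 4. A yw replicate 2 summit needed to reach 24.9 times background to match the lowest summit in the list of yw replicate 1. Of the 26 intervals in yw replicate 2, 6 did so, among them those at RpS9, RpL7A, RpL28 and RpL11, and yw replicate 1 had an interval at 3 of the 6 genes, RpS9 and RpL7A included.

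The 26 intervals of yw replicate 2 were somewhat stronger than the list they came from. Their median was 7.5 summit fragments, against 6 over the whole list and 6 over the 538 intervals that met other short genes. Of them, 16 lay above the list's median −log10 p and 6, or 23.1%, reached a −log10 q of 10, against 15.6% of the intervals at other short genes. Their widths ran from 117 to 852 bp with a median of 227.5 bp, against 209 bp over the list. In the Osa-GFP lists the medians at ribosomal protein genes were 5 and 6 fragments, against 8 over each list.

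Most intervals lay beside the genes rather than in them. Of the 26 in yw replicate 2, 20 lay wholly outside the ribosomal protein gene, 5 crossed an end of its span and 1, in RpS13, lay inside. All 4 intervals of yw replicate 1 lay outside, as did 4 of 5 in Osa-GFP replicate 1 and 3 of 4 in Osa-GFP replicate 2. With the gene span alone, 1.12% and 1.12% of ribosomal protein genes were called in Osa-GFP, against 0% and 6.74% in yw. The shares of other short genes fell too, to 1.19% and 1.19%, against 0.594% and 3.61%. A position beside the gene is thus not shown to be particular to ribosomal protein genes. The gene table gives no strand, so it is not known which end of a gene is its start. Centres within 250 bp of an end made up 40% and 50% of the intervals for Osa-GFP, against 25% and 53.8% for yw. The mean difference between Osa-GFP and yw was 5.58 points, with an exact permutation p of 1 over 4 to 26 intervals per list, and it changed sign without yw replicate 1, at -8.85 points.

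**Figure D2:**
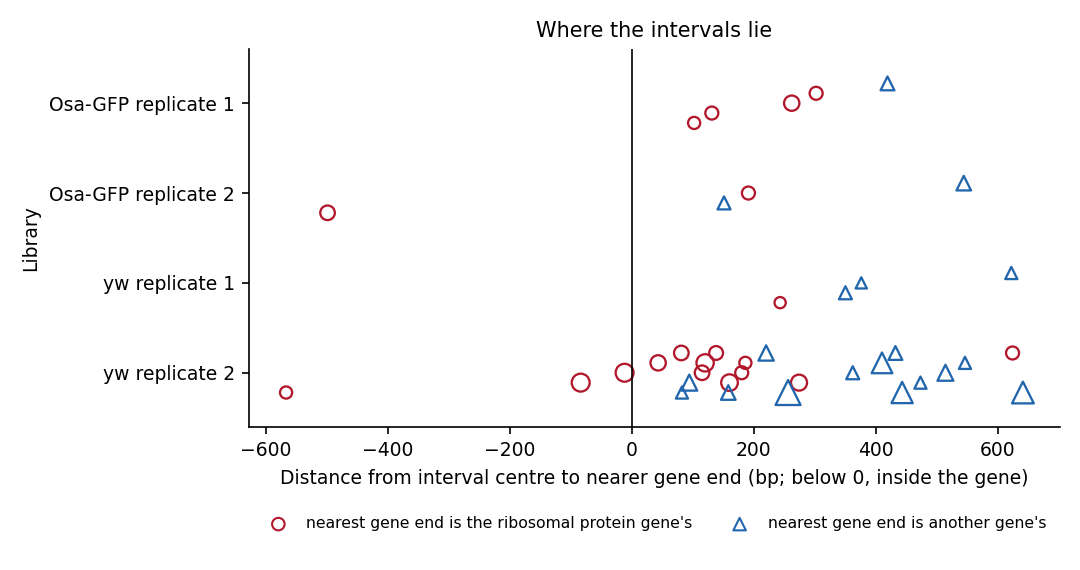
Distance in bp from the centre of each interval to the nearer end of its ribosomal protein gene (horizontal axis; below 0 is inside the gene) in each library (rows). The size of a symbol grows with the summit fragments, circles mark intervals whose nearest gene end is the ribosomal protein gene's and triangles those nearer to another gene. Large symbols in yw replicate 2 include the triangles of RpS9, RpL7A and RpL28, with 26, 18 and 17 fragments.

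Many intervals lay nearer to a neighbouring gene than to the ribosomal protein gene. Of the 89 ribosomal protein genes, 69 (77.5%) had another protein-coding gene within 500 bp, much as other short genes did (81.1%). In yw replicate 2 another gene's window met 21 of the 26 intervals, and for 13 of the 26 the nearest gene end was not the ribosomal protein gene's. This was the case at the 4 tallest, among them RpS9, RpL7A and RpL28. The RpS9 interval was centred 48 bp from an end of CG3408 and 256 bp from RpS9. The RpL7A interval was centred 207 bp from deltex (dx), a regulator of Notch signalling, and 443 bp from RpL7A. The RpL28 interval was centred 30 bp from eIF1, a translation initiation factor gene, and 410 bp from RpL28.

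Among the tallest summits nearest to a ribosomal protein gene's own end was that of RpL11, centred 12 bp inside it. Lower ones had their centres near RpS26 (120 bp outside the gene), RpL22 (160 bp), RpL37-1 (274 bp), RpL29 (43 bp), RpL3 (115 bp) and RpL31 (81 bp). When only intervals nearest to the ribosomal protein gene's own end were kept, 4 and 1 genes were left in Osa-GFP replicates 1 and 2, against 1 and 13 in yw replicates 1 and 2. The number with a yw and no Osa-GFP interval then was 11 in place of 22. The same rule was not applied to other short genes. In yw replicate 2 the nearest gene end belonged to the same set for 50% of intervals at ribosomal protein genes. It did so for 65.4% at other short genes, a far larger set. The Osa-GFP intervals at RpS4, RpL28 and RpL24-like also lay nearer to another gene, to Syx13, eIF1 and CG5276. Among genes with a neighbour within 500 bp, yw replicate 2 had an interval at 33.3% of ribosomal protein genes and 9.68% of other short genes. Among those without, it had one at 15.0% of 20 ribosomal protein genes (3 genes) and 3.52% of other short genes.

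Within the ribosomal protein genes the intervals were spread over both subunits and over X and autosomes. In yw replicate 2, 13 of 50 large-subunit genes (26.0%) and 13 of 39 small-subunit genes (33.3%) had an interval. In the Osa-GFP libraries the large subunit had 3 and 3 genes and the small subunit 2 and 0. On X, 5 of 15 genes (33.3%) had an interval in yw replicate 2, and on the autosomes 21 of 74 (28.4%). Genes with an annotated snoRNA inside their span numbered 29; 11 of them (37.9%) had an interval in yw replicate 2, against 15 of 60 genes without one (25.0%). The snoRNA hosts were longer, with a median span of 1792 bp against 1139 bp. Of 25 genes with a copy of like name in the set, 7 had an interval in yw replicate 2, against 19 of 64 others (28.0% and 29.7%). RpS14a and RpS14b, a tandem pair of nearly identical genes, had an interval of 4 fragments at RpS14a in yw replicate 2 and none at RpS14b. Fragments from near-identical copies can be lost to a mapping quality filter, so absence there is uncertain. These subsets are small, and none of their differences was tested.

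The 60 genes with no interval included sta, RpS3, a Minute gene with a further role in DNA repair, and RpS6, whose phosphorylation marks TOR signalling. They also included RpL40 and RpS27A, which encode ubiquitin fused to a ribosomal protein, RpL5, the partner of RpL11, and RpS5a, whose span of 4677 bp is the longest and holds 14 snoRNAs. For these genes the lists say only that no summit passed the caller's threshold, and the fragments below it are not known. Of the 26 genes with an interval in yw replicate 2 and the 63 without, median spans were 1435.5 and 1312 bp and median gaps to the next gene 146 and 143 bp.

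Other lists of housekeeping genes are described by their counts alone. They had more members with intervals in yw replicate 2 than in either Osa-GFP list, as did all protein-coding genes, at 13.3% and 12.0% for Osa-GFP, against 3.92% and 19.2% for yw. Mitochondrial ribosomal protein genes had 6 and 2 of 73 in Osa-GFP replicates 1 and 2, against 1 and 11 in yw replicates 1 and 2. Translation factor genes had 4 and 5 of 52 in Osa-GFP and 2 and 15 in yw, and their share in yw replicate 2, 28.8%, was close to the 29.2% of the cytosolic ribosomal protein genes. Proteasome subunit genes had 0 and 1 of 48 in Osa-GFP and 1 and 5 in yw, and respiratory chain and ATP synthase subunit genes 4 and 5 of 71 in Osa-GFP and 0 and 13 in yw. Chemoreceptor genes, which are used mainly in sensory neurons, had 3 and 6 of 179 in Osa-GFP and 2 and 4 in yw. In yw replicate 2 the shares of mitochondrial ribosomal protein genes (15.1%), respiratory chain and ATP synthase subunit genes (18.3%) and proteasome subunit genes (10.4%) lay below the 19.2% of all genes. They lay above the 8.52% of other short genes. In that list intervals covered 2.03%, 1.75% and 1.30% of their windows, in the same order. This compares with 0.996% for all genes and 0.797% for other short genes. The eIF1 interval beside RpL28 counts for both lists it touches. The median spans of these lists ran from 909 bp for mitochondrial ribosomal protein genes to 1955 bp for translation factor genes, against 1333 bp for the cytosolic ribosomal protein genes, so the shares are not corrected for length. The differences between lists were not tested.

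**Figure D3:**
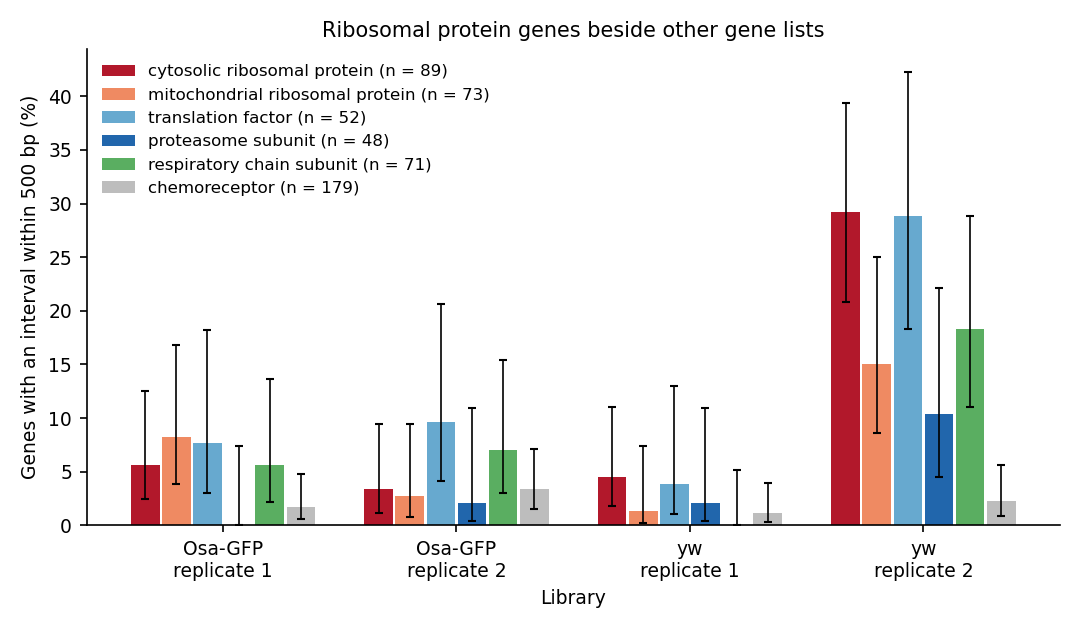
Percentage of genes with an interval within 500 bp (vertical axis) in each library (horizontal axis) for cytosolic ribosomal protein genes and 5 other gene lists. Bars are shares and error bars 95% Wilson intervals, which cover counting error only. In yw replicate 2 the shares ran from 2.23% of chemoreceptor genes to 29.2% of cytosolic ribosomal protein genes.

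The lists were also made alike in size or in strength. With the 774 strongest intervals of each list, 0 and 0 ribosomal protein genes had an interval in Osa-GFP replicates 1 and 2, against 4 and 6 in yw replicates 1 and 2. The shares of other short genes were then 0.368% and 0.297% for Osa-GFP, against 1.13% and 1.33% for yw. With summits of at least 24.9 times background, 1792 and 1392 intervals were left for Osa-GFP, against 774 and 776 for yw, and the counts of ribosomal protein genes were again 0 and 0, against 4 and 6. Other short genes then stood at 0.778% and 0.495% for Osa-GFP, against 1.13% and 1.33% for yw. At a −log10 q of 10 or more they were 0 and 0 for Osa-GFP, against 0 and 6 for yw, where 76 intervals were left in replicate 1, and other short genes stood at 0.877% and 0.566% for Osa-GFP, against 0.0424% and 1.33% for yw. With under 1% of other short genes called, an Osa-GFP count of 0 among 89 genes is near the background in all 3 settings. In the first 2 of these settings the genotypes did not overlap, and the exact permutation p of the difference in share was 0.33, the smallest possible.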

How the data were processed

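The submitters' processing notes name Bowtie2 2.3.4.1, build dm6, MACS2 2.1.2, Picard 2.2.4, SAMtools 1.10 and deepTools 2.4.1. Libraries were made from the supernatant fraction, per the labels. Peak names carry the tags trim, q5, dupsRemoved and allFrags and the name of a single library. No command line or threshold was found in the headers or labels. The deposited fold from the authors' peak caller matched summit fragments plus 1, divided by background plus 1. It therefore lies below the multiples of background given here. The caller's p and q were deposited as −log10 values, together with a score of 10 times the −log10 q, which was not used further, and the summit's position. A peak's values were used only to describe, rank or filter within its list.

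Folds were whole multiples of 1 step for 100% of peaks in every list (tolerance 0.01), which gave background and whole summit fragments. A Poisson probability from them returned the −log10 p to within 9.74e-06 for values under 100. Lists shared at most 2 identical intervals.

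Gene spans came from a RefSeq table of 17872 rows (Release 6 assembly) without strand, so distances run to the nearer gene end in place of the planned start. No sequence was used, and the planned motif search was not run. Shares were compared over libraries with exact permutation tests, two-sided, in scipy 1.17.1 under Python 3.11.15. The overlap count was checked on simulated intervals. Members and lists were chosen with earlier results of these data known. Named genes are those with intervals in both lists of a genotype, the 10 strongest per deep list, and a few fixed ones, among them sta, RpS6, RpS3 and RpL32; results for some genes under this rule are not reported here, and others named were chosen after their values were seen.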

Additional observations from a re-analysis of the deposited data

How the results depend on the processing

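The difference in the share of ribosomal protein genes with an interval (-12.4 points, Osa-GFP minus yw) kept its direction under all 11 settings that kept 4 libraries, from -14.1 to -2.25 points, and ran from -24.7 to 0 when 1 library was left out. The excess over other short genes (-10.8 points) kept its direction under every setting, from -19.5 to -1.33 points, and so did the share of a list (-0.462 points), from -0.646 to -0.0475. In the excess the genotypes overlapped by gene span alone, with 1000 bp either side and at a −log10 q of 5. They also overlapped when 50% of the peak, or its summit, had to lie in the window. In the share of a list they overlapped by gene span alone and at −log10 q of 5 and 10, where yw replicate 1 stood at 0. In the other settings with 4 libraries they stayed apart. For the excess at a −log10 q of 10, however, both Osa-GFP lists and yw replicate 1 held 0 ribosomal protein genes. Their values of -0.877, -0.566 and -0.0424 points were therefore only the shares of other short genes with the sign changed. That setting shows no separation of yw replicate 1 at ribosomal protein genes. With the replicate block, which pairs libraries by number, the differences in share, excess and share of a list were again -12.4, -10.8 and -0.462 points. Their exact sign-flip p were 1, 0.5 and 0.5. The labels do not say that a number marks a shared preparation.

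The 1 gene with intervals in both Osa-GFP lists and no yw list became 2 with 1000 bp either side (RpL17 joined). Merged regions, each classed by itself and given to the gene with the nearest end, named 3 genes (RpL17 and RpL22 joined). RpL22 was named for a region at X 766659 to 766932, outside its 500 bp window. Within that window RpL22 had an interval in yw replicate 2 and none in Osa-GFP replicate 2. None was left at the −log10 q threshold of 10, with the same number of peaks, at the same minimum over background and without the "-like" genes (0 in each). Leaving out a library gave 1 to 2. The 22 genes with a yw and no Osa-GFP interval became 6 by gene span alone and 12 and 6 at −log10 q of 5 and 10. They became 7 with the same number of peaks or the same minimum over background, and 11 by nearest end alone. Merged regions named 14 genes with a yw-only region, among them RpL5, RpL38 and RpL40, which had no interval in their 500 bp windows. Leaving out a library gave 4 to 25. The same counts over all genes and other short genes are not given for these changed settings. Whether the counts of ribosomal protein genes exceed the background there is therefore not shown.

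The share of centres near a gene end (5.58 points) reversed to -6.67 points with 1000 bp either side, -15.5 without the "-like" genes and -38.5 by nearest end alone, and ran from -8.85 to 20.0 when a library was left out; with the block it was 5.58. Under gene span alone, the 2 thresholds on q, the same number of peaks and the same minimum over background, a list held no such interval and the share could not be computed. The cause of these changes was not tested. The same minimum over background, the changes of members, the assignment by nearest end alone and the share of a list were chosen after seeing the data. The depth of yw replicate 1 limits what its list can show.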
